A study of Mus musculus with 2 samples.

Results

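Prostaglandins are lipid signals made from arachidonic acid. The genes described here are 9 of the 32285 genes counted, and were chosen by symbol as enzymes and receptors of this route. They comprise the cyclooxygenases Ptgs1 and Ptgs2, the terminal synthases Ptges, Ptgis and Ptgds, the breakdown enzyme Hpgd, and the receptors Ptger2, Ptger4 and Ptgfr.

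A cyclooxygenase converts arachidonic acid to an unstable intermediate, and a terminal synthase in the cell then sets which prostaglandin leaves it. Prostaglandin E2 and prostacyclin act on receptors of neighbouring cells over short distances, and prostaglandin E2 is known in skeletal muscle as a signal to satellite cells after injury. Hpgd, the 15-hydroxyprostaglandin dehydrogenase, inactivates the signal inside cells and is known as a brake on it in aged muscle.

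The data were 2 single-cell libraries (10x Genomics) of live mononuclear cells sorted from limb muscle. One came from mice given the drug Maraviroc (MVC), and one from mice given the vehicle DMSO. The methods describe the treated animals as aged C57BL/6 mice injected intraperitoneally, and how many mice went into each library was not given in the sources used here. Each group thus held 1 library, so no test between the treatments was possible, and every difference below compares these 2 libraries.

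The DMSO library gave 5437 cells and 38748234 unique molecular identifiers (UMIs), with a median of 5802 per cell, and the MVC library 5454 cells and 35518029 UMIs, with a median of 5195 per cell. Of the kept barcodes, 8 occurred in both libraries. A level is given in CPM, the UMIs of a gene summed over the cells of a group for every 1000000 UMIs of that group. The 95% intervals are exact Poisson for levels, exact binomial for shares and exact conditional for ratios, and cover counting error only. Cells were grouped by clustering that did not use the 9 genes or the other prostanoid genes listed below, which gave 28 clusters, and each was called "X-like" from its marker genes.

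The fibro-adipogenic progenitors (FAP-like cells), stromal cells of the muscle interstitium, formed 3 groups led by Pi16, by Ifi205 or by Cxcl14, of which the Ifi205 group was also led by immune genes such as Cxcl1 and Ccl7. Of 10 FAP markers, 5 to 7 were raised in each of their clusters, though none was among the 10 leading genes. Endothelial (EC-like) cells fell into capillary, arterial and venous groups, and the capillary group also held clusters that no subtype marker named. The smooth muscle (SMC-like) cells held a contractile group and a group led by Ccl19 and Lgr5. In the latter group 6 SMC markers were raised but none was among its 10 leading genes. A cluster of 49 cells led by Pappa2 stayed unnamed.

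The sequences upstream of both cyclooxygenase genes are shown because these genes share a reaction but had their highest levels in different cell groups. A link of these sequences to the levels was not tested. Both are given for 250 bases before the annotated start of the gene (RefSeq, GRCm38.p6, plus strand, 5′ to 3′), Ptgs1 from chr2:36230176-36230425 and Ptgs2 from chr1:150099781-150100030, in lower case with matches to the searched motifs in capitals.
Ptgs1: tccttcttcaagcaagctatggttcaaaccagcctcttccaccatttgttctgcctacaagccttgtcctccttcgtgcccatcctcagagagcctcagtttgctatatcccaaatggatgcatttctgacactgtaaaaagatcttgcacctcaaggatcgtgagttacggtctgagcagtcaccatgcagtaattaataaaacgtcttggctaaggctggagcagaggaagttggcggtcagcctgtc
Ptgs2: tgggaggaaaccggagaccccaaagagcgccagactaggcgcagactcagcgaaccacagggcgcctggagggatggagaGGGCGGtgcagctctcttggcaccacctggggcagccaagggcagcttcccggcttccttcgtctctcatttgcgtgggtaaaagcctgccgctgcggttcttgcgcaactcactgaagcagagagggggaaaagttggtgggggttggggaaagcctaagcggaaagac
Searched were the TATA box TATAAA on the given strand and, on both strands, the E-box CACGTG, the core of the cAMP response element TGACG, the AP-1 site TGANTCA and the GC box GGGCGG. The Ptgs2 window held the GC box once, at bases -170 to -165 from the start, and the Ptgs1 window held none of the 5 motifs. Bases after the annotated start were not searched, so a motif there would not be seen. Of 32851 upstream windows of the same length, 32.7% held the GC box, 17.8% the cAMP core, 7.59% the TATA box, 6.75% the AP-1 site and 6.02% the E-box. In the 8 of the 9 genes with a window in the table, the GC box was also found in Ptges, Hpgd, Ptger4 and Ptgfr, and the AP-1 site in Ptgds.

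**Figure D1:**
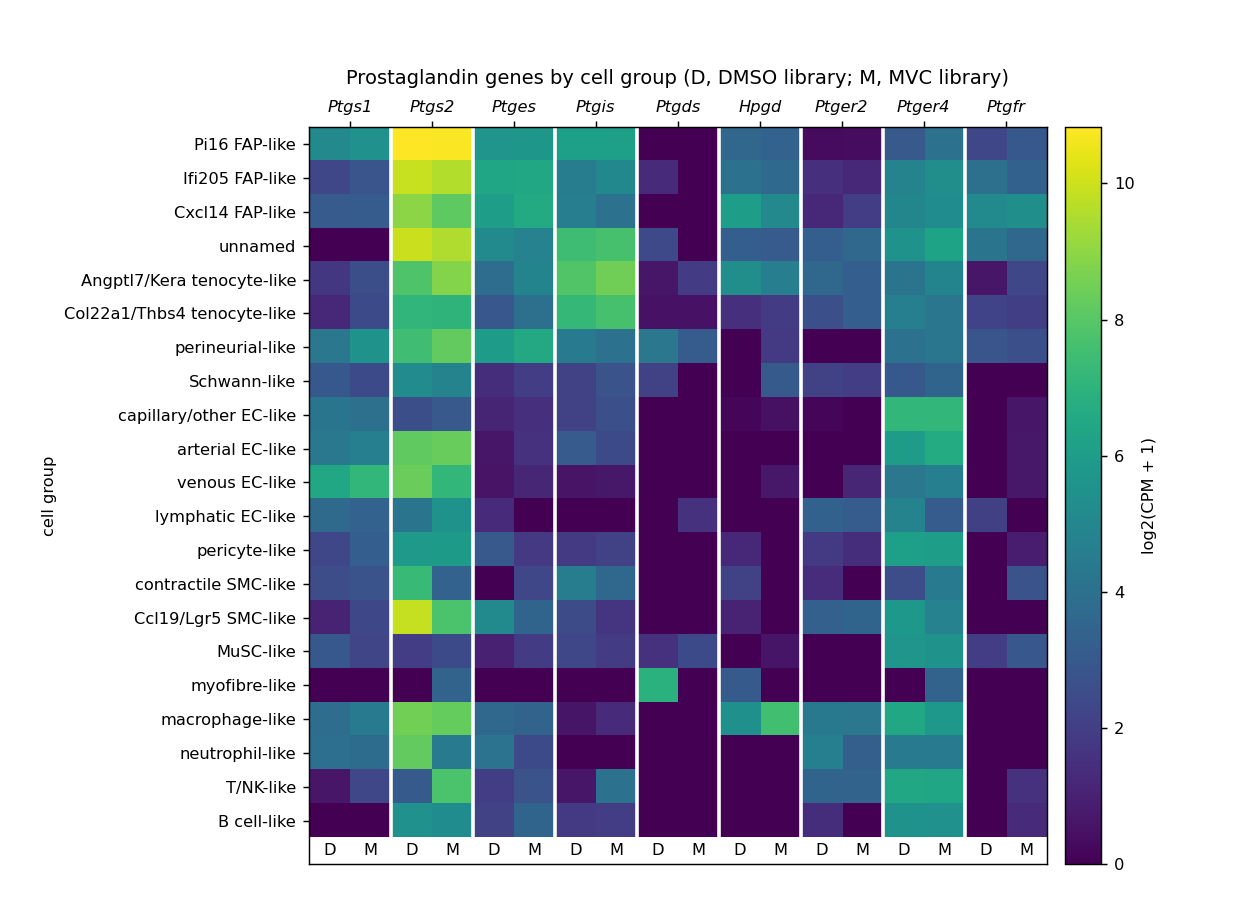
Level of each of the 9 genes, as log2(CPM + 1), in 21 cell groups (rows) of the DMSO (D) and MVC (M) libraries (columns); colours are to be compared down the column of a gene. Ptgs2 was high in the FAP-like groups, Ptgis in the tenocyte-like groups and Ptger4 in the capillary EC-like group. Hpgd was higher in macrophage-like than in Cxcl14 FAP-like cells in MVC, and lower in DMSO.

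Ptgs2, the inducible cyclooxygenase (ENSMUSG00000032487, GRCm38 chr1:150100031-150108227, plus strand), was above all a transcript of FAP-like cells. These cells held 13913 of the 18028 Ptgs2 UMIs of the DMSO library and 10856 of the 14032 of the MVC library. Its level was 1064 CPM (95% interval 1046 to 1082) in DMSO and 791 CPM (776 to 806) in MVC, a ratio of 0.744 (0.725 to 0.762). Endothelial capillaries and satellite cells (MuSC-like), the stem cells of muscle fibres, stood at the other end, with 5.06 and 7.13 CPM in the capillary group and 3 and 4 UMIs in all MuSC-like cells.

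Within the FAP-like class the levels were ordered the same way in both libraries. Pi16 FAP-like cells had 1807 CPM in DMSO and 1741 in MVC, Ifi205 FAP-like cells 975 and 753, and Cxcl14 FAP-like cells 486 and 281. The groups did not differ alike between the libraries: the ratio was 0.964 (0.932 to 0.997) in the Pi16, 0.773 (0.737 to 0.810) in the Ifi205 and 0.578 (0.543 to 0.615) in the Cxcl14 group. The Cxcl14 group, the lowest of the 3, also made up 40.1% of the FAP-like cells in DMSO and 49.9% in MVC, so the level of the whole class mixes levels with make-up. In the Cxcl14 group 7 of the 32 dissociation genes described next were at least 1.5-fold lower in MVC and none higher. Of all 10890 genes with 50 or more UMIs in this group, 16.3% passed 1.5-fold in either direction, 1335 higher and 445 lower in MVC.

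At a higher clustering resolution, whose clusters were described after seeing the data, the FAP-like cells split further and Ptgs2 differed between the parts. The Pi16 group divided mainly into 408 cells led by Sdk1, Dmkn and Sbsn and 190 led by Pi16, Tmem100 and Cd248. The cluster of the former had 2184 CPM in DMSO and 2202 in MVC, a ratio of 1.01 (0.973 to 1.04). That of the latter had 324 and 386 CPM, so high Ptgs2 was a feature of one of the parts.

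The 1207 cells of the Cxcl14 group divided mainly into 461 led by Cxcl14, Smoc2 and Grm8, 341 led by Gdf10, C7 and Inmt, and 361 led by Dnajb1, Egr1 and Zfp36, genes known to be induced by tissue dissociation. The first cluster had only 80.9 and 97.5 CPM of Ptgs2, and its ratio of 1.20 (0.963 to 1.52) ran opposite to that of the whole group. It held 133 cells in DMSO and 329 in MVC. The cluster led by Gdf10 had 203 and 103 CPM, a ratio of 0.507 (0.404 to 0.633). The cluster led by Dnajb1 had 995 and 749 CPM, a ratio of 0.753 (0.704 to 0.806), so the low ratio of the Cxcl14 group was not shared by all its parts. A list of 32 dissociation genes summed to 109159 and 110715 CPM in that cluster, against 20989 to 64108 CPM in the other FAP-like clusters of the DMSO library. Ptgs2 is itself known as an immediate early gene, and the part of the dissociation response in its level was not tested.

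**Figure D2:**
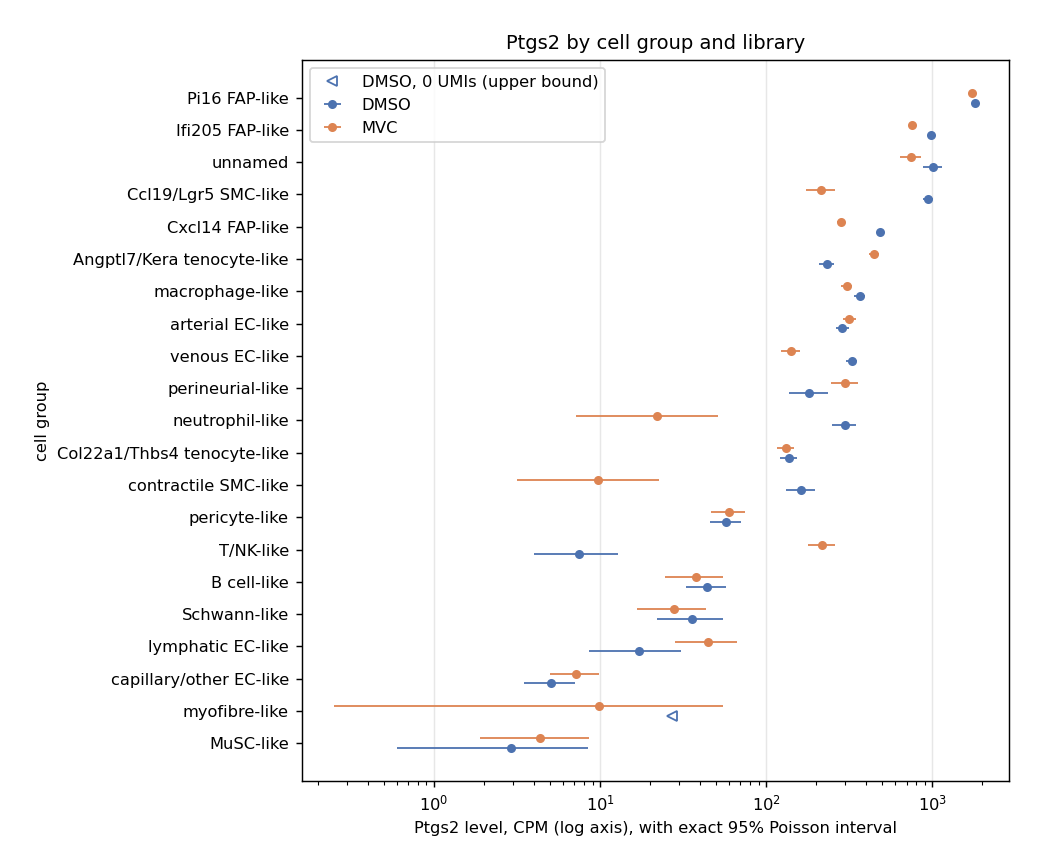
Ptgs2 level in CPM (log axis) in each cell group of the DMSO (blue) and MVC (orange) libraries, with the exact 95% Poisson interval; the open triangle is the upper bound where there were 0 UMIs. Levels ran from 1807 CPM in the Pi16 FAP-like cells of DMSO down to those of capillary EC-like and MuSC-like cells, and T/NK-like, neutrophil-like and SMC-like cells stood widest apart between the libraries.

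Cells differed widely in Ptgs2 within each group. In DMSO, 158 of 284 Pi16 FAP-like cells held 10 or more UMIs and 59 held none, and in MVC 150 of 320 and 76. With each cell thinned to 2000 UMIs, Ptgs2 was seen in 41.0% (38.2 to 43.9) of FAP-like cells in DMSO and 35.7% (33.1 to 38.4) in MVC, a difference of -5.30 percentage points (-9.11 to -1.47). Without thinning the shares were 56.9% and 50.9%. The thinned share in B cell-like cells, a class low in Ptgs2, was 1.49% and 1.09%. Thinning left out 45 and 121 shallower FAP-like cells, and before it the median cell held 10282 and 9182 UMIs, against 5071 and 5412 in B cell-like cells.

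FAP-like cells with much Ptgs2 were deeper than those with none, and in the dissociation genes the order depended on the group. In the Cxcl14 group of DMSO the dissociation list summed to 106280 CPM in cells with 10 or more Ptgs2 UMIs and to 60851 CPM in cells with none, and in MVC to 102142 and 48405 CPM. In the Pi16 group, highest in Ptgs2, the sums were 22930 against 18621 CPM in DMSO and 28494 against 14761 CPM in MVC. In the Ifi205 group the order differed between the libraries, with 21906 against 25785 CPM in DMSO and 29875 against 26688 CPM in MVC. Median UMIs per cell were also higher in the cells with 10 or more, at 12376 against 7886 in the Cxcl14 group of DMSO.

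**Figure D3:**
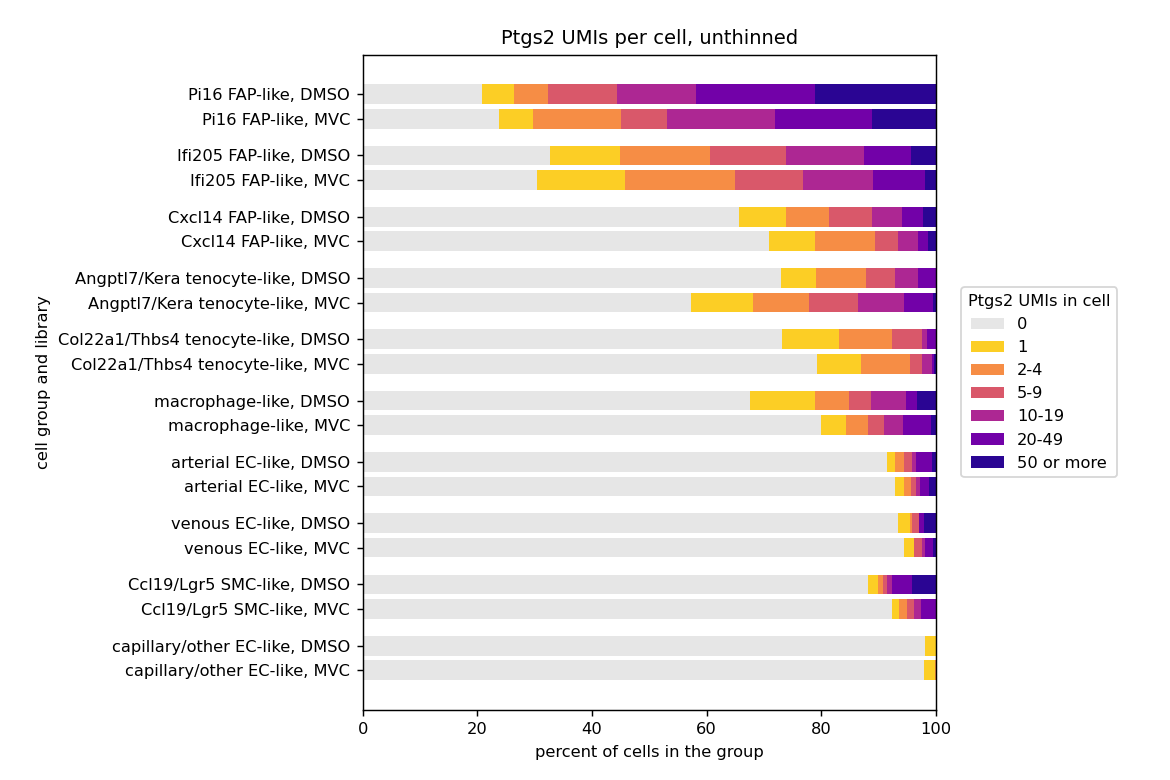
Percent of cells (x axis) by the number of Ptgs2 UMIs in the cell (colour, unthinned) for 10 cell groups in each library. Most Pi16 FAP-like cells held Ptgs2, while in the arterial EC-like, venous EC-like and Ccl19/Lgr5 SMC-like groups a few cells held many UMIs, and no capillary EC-like cell held more than 2.

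In endothelium Ptgs2 lay in few cells. In venous EC-like cells 653 UMIs were counted in DMSO and 223 in MVC, or 326 and 141 CPM, and they came from 16 of 243 and 12 of 212 cells. The ratio was 0.431 (0.369 to 0.503), and the 3 highest cells held 61.7% and 70.9% of the UMIs. The FAP markers summed to 708 and 366 CPM in the venous cells with 10 or more Ptgs2 UMIs, below the 951 and 1194 CPM of the venous cells with none. The cells with 1 to 9 Ptgs2 UMIs had 6477 and 1779 CPM.

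Arterial EC-like cells had 286 CPM of Ptgs2 in DMSO and 316 in MVC, from 24 and 18 cells, a ratio of 1.10 (0.972 to 1.25). Here the 12 DMSO cells with 10 or more UMIs had 928 CPM of FAP markers, and the 9 MVC cells 3753 CPM. In capillary EC-like cells 34 and 36 UMIs fell on 33 and 34 of 1765 and 1656 cells. Thus single cells with high counts were seen in the arterial and venous groups, with up to 147 and 195 UMIs in a cell, while no capillary cell held more than 2.

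Macrophage-like cells held 677 and 641 Ptgs2 UMIs, at 365 CPM in DMSO and 305 in MVC, the MVC value being 0.836 of the other (0.750 to 0.933). After thinning a UMI was seen in 15.5% (9.97 to 22.5) and 16.8% (11.8 to 22.7) of them, with overlapping intervals. Neutrophil-like cells held 145 UMIs in 27 of 65 DMSO cells and 5 UMIs in 4 of 34 MVC cells, or 296 and 21.9 CPM. In them the 10 FAP markers summed to 253 and 290 CPM, with 4 and 3 at 0, and the 9 macrophage markers to 1852 and 3388 CPM, with 2 and 4 at 0, and the part of these in the difference was not tested. Called doublets held 25 of the 145 UMIs and none of the 5, and without them the log2 ratio of CPM + 1 was -3.59 in place of -3.69.

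The smooth muscle and lymphocyte values rested on cells that also carried FAP markers. In the Ccl19/Lgr5 SMC-like group Ptgs2 stood at 945 CPM in DMSO and 214 in MVC (ratio 0.226, 0.183 to 0.278), from 14 and 6 cells. In those with 10 or more UMIs the FAP markers summed to 10092 and 15470 CPM, against 1363 and 1447 CPM in the cells with none. Called doublets held 0 of the 832 Ptgs2 UMIs of this group in DMSO and 4 of the 104 in MVC. In T/NK-like cells 13 UMIs were counted in DMSO and 111 in MVC, and 103 of the 111 lay in 3 cells called as doublets.

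Those 3 cells had 17452 CPM of FAP markers, against 673 CPM in the T/NK-like cells of MVC with no Ptgs2. Over the whole T/NK-like class all 10 FAP markers were detected in both libraries, with sums of 587 and 2616 CPM. Without called doublets the log2 ratio of Ptgs2 there was 1.76 in place of 4.68. In the SMC-like class, without the 3 cells of each library with most UMIs, it was -4.18 in place of -2.51.

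**Figure D4:**
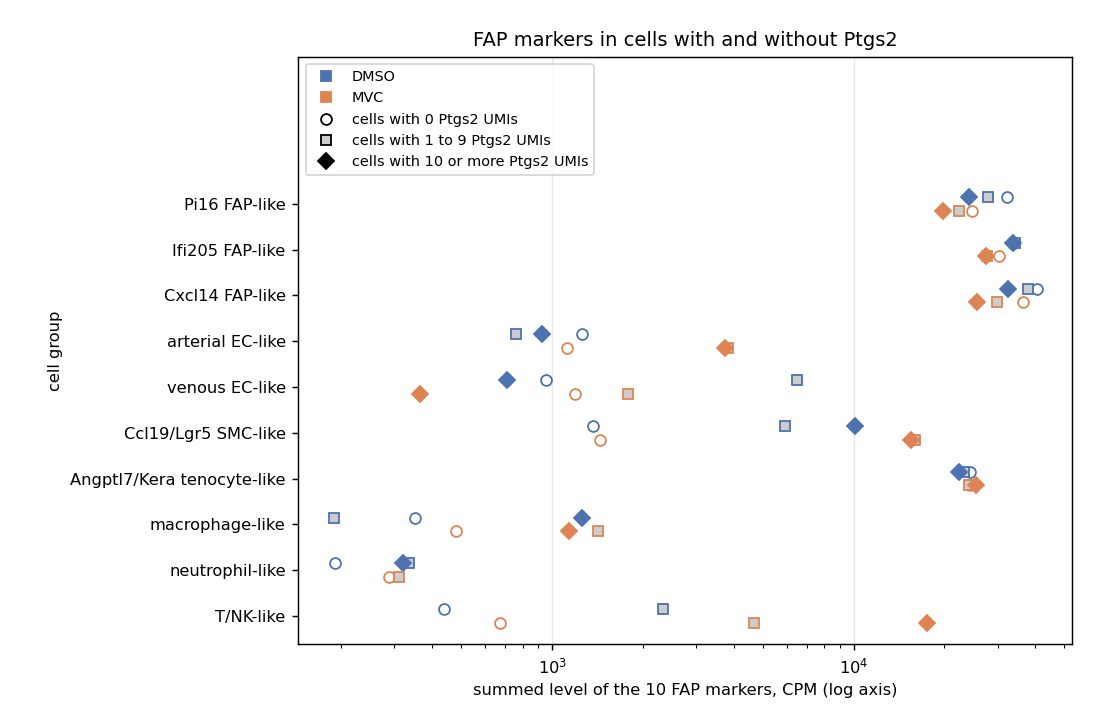
Summed level of the 10 FAP markers in CPM (log axis) in cells with 0 (circles), 1 to 9 (squares) and 10 or more (diamonds) Ptgs2 UMIs, by cell group and library (blue DMSO, orange MVC). Venous EC-like cells with 10 or more lay at 708 and 366 CPM, whereas those of the Ccl19/Lgr5 SMC-like and T/NK-like groups lay above 10000 CPM.

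Tenocyte-like cells, the fibroblasts of tendon, went the other way. The group led by Angptl7 and Kera had 393 Ptgs2 UMIs in DMSO and 800 in MVC, or 231 and 446 CPM, a ratio of 1.93 (1.71 to 2.18). Its cells with a UMI numbered 53 of 196 and 91 of 213, and the thinned share was 16.7% (11.7 to 22.7) and 29.6% (23.5 to 36.4). The group led by Col22a1 and Thbs4 had 136 and 131 CPM, a ratio of 0.958 (0.814 to 1.13).

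In the Angptl7/Kera group the dissociation list summed to 29631 CPM in DMSO and 37256 in MVC, with a median log2 ratio of 0.37. In MVC 4 of the 32 genes were at least 1.5-fold higher and none lower. Of all 6902 genes with 50 or more UMIs in this group, 17.8% passed 1.5-fold in either direction, 641 higher and 585 lower in MVC. For the whole tenocyte-like class the ratio of Ptgs2 was 1.52 (1.39 to 1.68), and with clusters drawn after centring each gene within its library the log2 ratio was 0.40 in place of 0.60, under the 1.5-fold mark. Perineurial-like cells, which sheathe nerves, had 59 and 114 UMIs, or 181 and 296 CPM, in 37 and 52 cells.

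Ptgs1, the constitutive cyclooxygenase (ENSMUSG00000047250, chr2:36230426-36252272, plus strand), was led by another cell type. Venous EC-like cells had 175 UMIs in DMSO and 223 in MVC, or 87.4 CPM (75.0 to 101) and 141 CPM (123 to 160), a ratio of 1.61 (1.31 to 1.97). The UMIs were spread over 106 of 243 and 114 of 212 cells, and the 3 highest cells held 8% and 7.17%. Thus in venous cells Ptgs1 was seen in many cells and Ptgs2, lower in MVC, in few. Of the 32 dissociation genes, 6 were at least 1.5-fold higher and 1 lower in MVC in these cells, and their part was not tested. Of all 6609 genes with 50 or more UMIs in these cells, 19.2% passed 1.5-fold in either direction, 543 higher and 723 lower in MVC.

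Pi16 FAP-like cells came next, with 33.4 and 43.1 CPM of Ptgs1, apart from the venous cells in both libraries. Capillary EC-like cells had 17.3 and 15.1 CPM and arterial 18.9 and 24.2 CPM, whose intervals overlapped. Cxcl14 FAP-like cells had 7.55 and 7.77 CPM. No Ptgs1 UMI was counted in the 206 DMSO and 106 MVC B cell-like cells before thinning, for which the exact interval of the share of cells with a UMI reached 1.77% and 3.42%.

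Ptges, the microsomal prostaglandin E synthase (ENSMUSG00000050737, chr2:30889471-30929863, minus strand), was a FAP-like transcript like Ptgs2, but the Pi16 group was the lowest of the FAP-like groups. It stood at 81.8 and 87.5 CPM in the Ifi205 group, 64.6 and 96.5 in the Cxcl14 group and 49 and 52.2 in the Pi16 group. The Ifi205 group was above the Cxcl14 group in DMSO, and in MVC the Cxcl14 group had the higher value, with overlapping intervals. For the class, 860 UMIs in DMSO and 1132 in MVC gave 65.8 and 82.5 CPM, a ratio of 1.25 (1.15 to 1.37). It was thus on the other side of 1 from Ptgs2 in the same cells.

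Among the FAP-like groups the ratio of Ptges was highest in the Cxcl14 group, at 1.49 (1.30 to 1.72), against 1.07 (0.918 to 1.24) in the Ifi205 and 1.07 (0.869 to 1.31) in the Pi16 group. At the higher resolution it was 2.19 (1.52 to 3.20) in the cells led by Gdf10, C7 and Inmt and 0.417 (0.161 to 0.907) in the 46 DMSO and 21 MVC cells led by Apod, Tenm2 and Gpc3, from 66 and 7 UMIs, with 1.16 to 1.41 in the other 5 clusters. The median log2 ratio of all genes was 0.13 in FAP-like and 0.15 in Cxcl14 FAP-like cells, so part of these ratios lay at the level of all genes. With scaling by that median the log2 ratio of Ptges in FAP-like cells was 0.19 in place of 0.32, and that of Ptgs2 -0.56 in place of -0.43.

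Cells with and without Ptgs2 held Ptges in shares whose intervals overlapped. After thinning, Ptges was seen in 10.6% (8.01 to 13.7) of the FAP-like cells with Ptgs2 and 12.0% (9.70 to 14.7) of those without, and in MVC in 15.7% (12.5 to 19.3) and 12.7% (10.6 to 15.2). Perineurial-like cells had 61.5 and 90.9 CPM of Ptges from 20 and 35 UMIs. Tenocyte-like cells had 9.54 and 20.9 CPM, from 38 and 85 UMIs, a ratio of 2.19 (1.47 to 3.29).

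Ptgis, the prostacyclin synthase (ENSMUSG00000017969, chr2:167191805-167240604, minus strand), was led by tenocyte-like cells. They had 739 UMIs in DMSO and 1088 in MVC, or 186 CPM (172 to 199) and 267 CPM (251 to 283), a ratio of 1.44 (1.31 to 1.58). Both tenocyte-like groups shared this: the Angptl7/Kera group had 236 and 352 CPM and the Col22a1/Thbs4 group 148 and 200 CPM. The thinned share was 25.3% in DMSO and 31.7% in MVC, a difference of 6.44 percentage points (0.490 to 12.3).

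The unnamed cluster had 173 and 202 CPM of Ptgis, which overlapped with the Col22a1/Thbs4 group. Pi16 FAP-like cells had 67.6 and 67.8 CPM, above the Ifi205 (22.7 and 32.0) and Cxcl14 (23.5 and 16.0) groups. In EC-like cells, often named as a source of prostacyclin, only 36 and 34 UMIs were counted in 2291 and 2120 cells, or 3.46 and 4.14 CPM. FAP-like cells of DMSO with Ptgs2 held Ptgis in 8.75% (6.38 to 11.6) of cases and those without in 3.33% (2.12 to 4.96), with 7.20% and 4.59% in MVC, whose intervals overlapped. The class mixes groups, and the Pi16 group was the highest of them in both genes. Within the groups of DMSO the intervals overlapped, at 13.8% against 9.68% in the Pi16, 5.77% against 2.49% in the Cxcl14 and 5.32% against 2.12% in the Ifi205 group. In tenocyte-like cells the order differed between the libraries, with 13.5% (6.68 to 23.5) against 27.7% (23.1 to 32.7) in DMSO and 39.3% (29.1 to 50.3) against 29.9% (25.3 to 34.9) in MVC. Arterial EC-like cells of DMSO held Ptgis in 3 of 19 cells with Ptgs2 and 0 of 244 without. The first share was 15.8% (3.38 to 39.6), and the intervals did not overlap. In MVC 1 of 13 and 0 of 219 arterial cells held Ptgis, with overlapping intervals. Of the venous EC-like cells with Ptgs2, 0 of 10 in DMSO and 0 of 7 in MVC held Ptgis. The arterial values thus rest on 3 and 1 cells with both genes.

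Ptgds, the lipocalin-type prostaglandin D synthase (ENSMUSG00000015090, chr2:25466709-25470046, minus strand), was barely detected, with 36 UMIs in the DMSO library and 18 in the MVC library. Of the 36, 16 lay in 1 myofibre-like cell. No group had 50 UMIs, and the level over all cells was 0.929 and 0.507 CPM.

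Hpgd (ENSMUSG00000031613, chr8:56294585-56321043, plus strand), the breakdown enzyme, was found in FAP-like cells, macrophage-like cells and tenocyte-like cells, which held 53.9%, 35.4% and 9.13% of its UMIs over both libraries. Macrophage-like cells held 79 UMIs in DMSO and 386 in MVC, or 42.6 CPM (33.7 to 53.0) and 184 CPM (166 to 203), a ratio of 4.32 (3.38 to 5.57). The UMIs lay in 38 of 151 and 69 of 210 cells. After thinning, 9.15% (4.97 to 15.1) and 18.8% (13.6 to 24.9) of the cells held a UMI, with overlapping intervals. This overlap does not show that the shares were alike, and no interval of their difference was computed.

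The 3 highest cells of each library held 22.8% and 29% of the UMIs. Without them the log2 ratio was 1.94 in place of 2.08, and over all 10 alternatives it lay between 1.88 and 2.29. Before thinning, 25.2% (18.5 to 32.9) and 32.9% (26.5 to 39.7) of the cells held a UMI, with overlapping intervals. How far a larger set of cells with many UMIs carried the ratio was not tested. Other values are given for the same cells. Of the 32 dissociation genes, 5 were at least 1.5-fold higher and none lower in MVC, with sums of 24445 and 30010 CPM. Of all 7422 genes with 50 or more UMIs there, 16.3% passed 1.5-fold in either direction, 741 higher and 466 lower in MVC. The part of the dissociation genes in Hpgd was not tested. The 7 neutrophil markers summed to 429 CPM in DMSO and 717 in MVC, with 1 and 2 of them at 0, the 10 FAP markers to 480 and 686 CPM, and the 9 macrophage markers to 10016 and 9134 CPM. Their part was not tested either. Called doublets were 14.6% of the macrophage-like cells in DMSO and 8.10% in MVC, and held 10 of the 79 and 46 of the 386 Hpgd UMIs.

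In FAP-like cells Hpgd went the other way, with 413 UMIs in DMSO and 295 in MVC, or 31.6 and 21.5 CPM, a ratio of 0.681 (0.584 to 0.792). The thinned share was 6.32% and 3.48%, a difference of -2.84 percentage points (-4.61 to -1.15). The Cxcl14 group carried most of it, with 65.8 and 33.6 CPM, a ratio of 0.511 (0.427 to 0.611), while the Pi16 group had 10.9 and 9.73 CPM. In the Angptl7/Kera tenocyte-like cells 68 and 42 UMIs gave 40.0 and 23.4 CPM, a ratio of 0.585 (0.389 to 0.873).

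The lower Hpgd of the Cxcl14 group was seen in each of the 3 clusters that held most of its cells. The ratio was 0.414 (0.323 to 0.530) in the cells led by Cxcl14, Smoc2 and Grm8, 0.476 (0.311 to 0.718) in those led by Gdf10, C7 and Inmt, and 0.512 (0.348 to 0.743) in those led by Dnajb1, Egr1 and Zfp36. In the cells led by Sdk1, Dmkn and Sbsn 31 and 12 UMIs gave a ratio of 0.465 (0.217 to 0.931), and in those led by Pi16, Tmem100 and Cd248 16 and 29 UMIs a ratio of 1.37 (0.720 to 2.70). EC-like cells were almost without Hpgd UMIs: before thinning 1 of 2291 cells held one in DMSO and 3 of 2120 in MVC, or 0.0436% (0.00111 to 0.243) and 0.142% (0.0292 to 0.413).

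Of the receptors, Ptger4 (ENSMUSG00000039942, chr15:5206661-5244187, minus strand), which binds prostaglandin E2, was the most widely seen. Capillary EC-like cells led with 963 UMIs in DMSO and 727 in MVC, or 143 CPM (134 to 153) and 144 CPM (134 to 155), a ratio of 1.01 (0.911 to 1.11). After thinning 21.8% and 22.4% of these cells held a UMI. Venous EC-like cells had 18.5 and 24.6 CPM, so the endothelial group highest in Ptgs1 was lowest in Ptger4.

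Arterial EC-like cells had 62.0 and 98.7 CPM of Ptger4, a ratio of 1.59 (1.24 to 2.06). There 8 of the 32 dissociation genes were at least 1.5-fold higher in MVC and none lower. Of all 6255 genes with 50 or more UMIs in these cells, 12.6% passed 1.5-fold in either direction, 520 higher and 268 lower in MVC. With clusters drawn at the higher resolution the log2 ratio of CPM + 1 of Ptger4 was 0.44 in place of 0.66, under the 1.5-fold mark. T/NK-like cells had 85.2 and 82.0 CPM, pericyte-like cells 67.9 and 65.2 CPM, MuSC-like cells 48.5 and 44.8 CPM and B cell-like cells 45.5 and 43.4 CPM. The MuSC-like values rested on 50 and 82 UMIs, with a ratio of 0.922 (0.641 to 1.34).

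Macrophage-like cells had 158 Ptger4 UMIs in DMSO and 112 in MVC, or 85.1 and 53.3 CPM, a ratio of 0.626 (0.487 to 0.803). The order of these groups thus differed between the libraries: T/NK-like and macrophage-like cells stood above arterial EC-like cells in DMSO, and arterial EC-like cells above both in MVC. Within each library neighbours in the order had overlapping intervals. FAP-like cells had 22.2 and 32.4 CPM, a ratio of 1.46 (1.26 to 1.70), and the Pi16 group 7.18 and 15.8 CPM from 29 and 57 UMIs. Thus the Pi16 group, highest in Ptgs2, was lowest in Ptger4 among the FAP-like groups.

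Ptger2 (ENSMUSG00000037759, chr14:44988195-45003820, plus strand), another receptor of prostaglandin E2, was counted at 140 UMIs in the DMSO and 123 in the MVC library. Macrophage-like cells had 19.9 and 18.6 CPM, from 37 and 39 UMIs, a ratio of 0.931 (0.578 to 1.5). Tenocyte-like cells had 8.04 and 8.34 CPM, from 32 and 34 UMIs. At these counts a difference between the libraries was not detectable.

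Ptgfr (ENSMUSG00000028036, chr3:151796502-151837630, minus strand), the receptor of prostaglandin F2-alpha, was nearly restricted to FAP-like cells, which held 238 of its 258 UMIs in DMSO and 319 of 361 in MVC. The Cxcl14 group had 34.4 and 40.4 CPM, a ratio of 1.17 (0.958 to 1.44), the Ifi205 group 14.8 and 9.21 CPM and the Pi16 group 3.96 and 6.95 CPM. The lower value of the Ifi205 group in MVC depended on how the clusters were drawn: its log2 ratio of CPM + 1 was -0.63, but -0.04 with all variable genes used for clustering and -0.06 with each gene centred within its library. This order is the reverse of that of Ptgs2, although the Ifi205 and Pi16 intervals overlapped in MVC. MuSC-like cells had 3 and 12 UMIs.

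The opposite strand of Ptgis overlaps 1110018N20Rik and Gm14291, that of Ptger2 Gm17173 and that of Ptger4 Ttc33 (GENCODE M21). The strand setting of the counting was not stated in the sources used here, and the part of these overlaps in the counts was not tested.

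**Figure D5:**
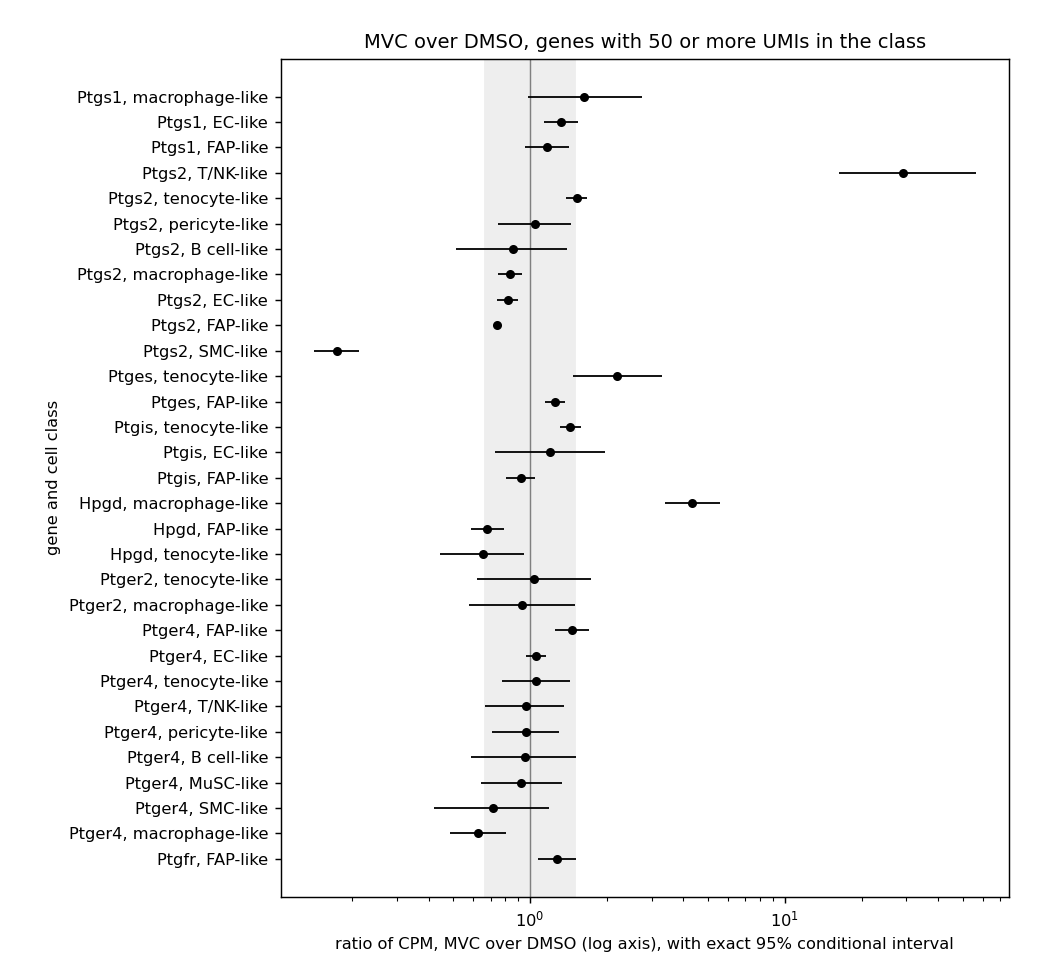
Ratio of CPM, MVC over DMSO (log axis), with its exact 95% conditional interval, for the 31 pairs of gene and cell class with 50 or more UMIs. Only classes with 50 or more cells in each library are shown. The grey band marks ratios under 1.5-fold in either direction. Of the 31 pairs, 5 lay above and 3 below the band, with Ptgs2 in T/NK-like and Hpgd in macrophage-like cells farthest above and Ptgs2 in SMC-like cells farthest below. Called doublets held 103 of the 111 MVC UMIs of Ptgs2 in T/NK-like cells.

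Over the 9 genes, 31 pairs of a gene and a class held at least 50 UMIs, among classes with 50 or more cells in each library. Ptgs2 in neutrophil-like and perineurial-like cells, with ratios of 0.0741 and 1.63, was left out by this minimum of cells. Of the 31 pairs 5 were at least 1.5-fold higher in MVC, 3 were at least 1.5-fold lower and the others lay between. This share has to be read against all genes with 50 or more UMIs in the same class, of which 14.8% passed 1.5-fold in FAP-like, 14% in EC-like, 14.4% in tenocyte-like, 16.3% in macrophage-like and 18.9% in SMC-like cells. It was 15.6% in pericyte-like, 19.2% in MuSC-like, 21.2% in B cell-like and 28.7% in T/NK-like cells. Among the 5 higher pairs was Ptgs2 in T/NK-like cells, where called doublets held 103 of its 111 MVC UMIs.

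In FAP-like cells none of the 7 genes tested passed the 1.5-fold mark and in EC-like cells none of 4. In tenocyte-like cells 3 of 6 did, Ptgs2 and Ptges higher and Hpgd lower, and in macrophage-like cells 3 of 5, Ptgs1 and Hpgd higher and Ptger4 lower. Ptgs1 in macrophage-like cells had 25 and 46 UMIs, a ratio of 1.62 (0.978 to 2.76) whose interval includes 1.

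Some of these calls were lost under other settings, given here as log2 ratios of CPM + 1. With a pseudocount of 10 CPM that of Hpgd in tenocyte-like cells was -0.37 in place of -0.58, and that of Ptgs1 in macrophage-like cells 0.44 in place of 0.66. Ptger4 in macrophage-like cells stood at -0.53 in place of -0.67 with each cell named by its own markers, and at -1.40 as the mean over cells of each cell's own CPM. All 3 kept their sign under the 10 alternatives. The median log2 ratio of the genes tested was 0.22 in FAP-like, 0.17 in EC-like, 0.30 in tenocyte-like and -0.10 in macrophage-like cells, against 0.13, 0.07, 0.04 and 0.04 over all genes in these classes.

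In the finer groups, 2 of 7 passed in Cxcl14 FAP-like cells (background 16.3%), 1 of 6 in Ifi205 (11.5%) and 1 of 6 in Pi16 FAP-like cells (13.4%). In venous EC-like cells 2 of 3 passed (19.2%), in arterial 1 of 3 (12.6%), in capillary 0 of 3 (16.5%), in Ccl19/Lgr5 SMC-like cells 2 of 2 (20.3%) in Angptl7/Kera tenocyte-like cells 4 of 5 (17.8%) and in Col22a1/Thbs4 tenocyte-like cells 0 of 3 (16.1%). In the Angptl7/Kera group Ptgs2, Ptges and Ptger4 were higher and Hpgd was lower. Members of one group share its cells and total, so these counts are not independent.

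The other genes of the route were followed as a list of 24. In the 9 classes whose background is given above, 69 pairs of such a gene and a class held 50 or more UMIs. Of these pairs 6 were higher and 8 lower by 1.5-fold in MVC, to be read against the 14% to 28.7% of all genes that passed in the same classes. Pla2g4a, the cytosolic phospholipase that frees arachidonic acid, was most counted in FAP-like cells, with 1020 and 1087 UMIs, or 78.0 and 79.2 CPM, a ratio of 1.02 (0.932 to 1.11). In SMC-like cells it had 70 and 5 UMIs, or 46.7 and 4.99 CPM. Ptgs2 was also lower there in MVC, but lay mostly in cells that carried FAP markers. Whether the same cells held the Pla2g4a UMIs was not tested.

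Immune cells held other terminal synthases. Hpgds, the haematopoietic prostaglandin D synthase, stood at 115 and 150 CPM in macrophage-like cells, a ratio of 1.30 (1.09 to 1.55), and Tbxas1, the thromboxane synthase, at 187 and 145 CPM, a ratio of 0.772 (0.659 to 0.903). Neither passed 1.5-fold. Among the synthases of prostaglandin F2-alpha, Akr1c18 had 21 and 48 UMIs in FAP-like cells, a ratio of 2.18 (1.28 to 3.83), of which the 3 highest cells held 57.1% and 72.9%. Akr1b3 stood at 166 and 72.1 CPM in MuSC-like cells, a ratio of 0.434 (0.343 to 0.548).

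Transport was led by vessels and satellite cells. Slco2a1, which carries prostaglandins into cells, stood at 144 and 182 CPM in EC-like cells and at 243 and 121 CPM in MuSC-like cells, a ratio of 0.497 (0.413 to 0.598) in the latter. In MuSC-like cells 11 of the 32 dissociation genes were at least 1.5-fold higher and 2 lower in MVC, and their part in this was not tested. Of all 6234 genes with 50 or more UMIs in MuSC-like cells, 19.2% passed 1.5-fold in either direction, 672 higher and 523 lower in MVC. Abcc4, which exports prostaglandins, stood at 95.8 and 141 CPM in EC-like cells, a ratio of 1.47 (1.35 to 1.61).

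Of the other pairs past 1.5-fold, 6 had an interval that included 1. These were Prxl2b in FAP-like cells (ratio 1.54), Pla2g5 (1.51), Ptgr2 (1.70) and Ptgir (1.72) in tenocyte-like cells, Pla2g4a in EC-like cells (0.622) and Hpgds in T/NK-like cells (0.598). Cbr1, a carbonyl reductase, had a ratio of 0.505 (0.264 to 0.919) in pericyte-like cells, from 41 and 16 UMIs. Ptges3, a cytosolic synthase also known as the chaperone partner p23, was counted in every class, at 368 and 310 CPM in FAP-like cells.

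Ptgir, the prostacyclin receptor, stood at 65.4 and 36.9 CPM in SMC-like cells, a ratio of 0.564 (0.376 to 0.831), and at 36.2 and 19.2 CPM in pericyte-like cells, a ratio of 0.531 (0.312 to 0.877). FAP-like cells had 23.1 and 20.3 CPM of it. Tbxa2r, the thromboxane receptor, had 24 and 39 UMIs in EC-like cells, a ratio of 2.06 (1.21 to 3.59). Of the receptors of prostaglandin D2, Ptgdr had 1 UMI in each library and Ptgdr2 had 3 in DMSO and 1 in MVC.

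Across the 28 clusters, with both libraries pooled, the log2(CPM + 1) of Ptgs2 followed most closely Anpep (r = 0.88), Ptgs2os (r = 0.86) and Pla2g4a (r = 0.78) among 10381 genes. Ptgs2os is a transcript named for its place opposite Ptgs2. These correlations describe clusters that share the same 2 libraries and include many FAP-like ones.

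For the other genes with enough UMIs the closest were Atox1, Card10 and Trim16 for Ptgs1 (r = 0.77, 0.75 and 0.73), Pamr1, Ptgs2os and Pdgfra for Ptges (0.86, 0.85 and 0.84), and 1700024B18Rik, Lox and Loxl4 for Ptgis (0.88, 0.87 and 0.87). Hpgd was closest to Rab7b, Gpnmb and Dnm1 (0.80, 0.75 and 0.75), Ptger4 to Lpar6, Ada and Slc28a2 (0.81, 0.80 and 0.80) and Ptgfr to Trhde, Atf5 and Chrd (0.86, 0.85 and 0.83). Among the 9 genes themselves, Ptgs2 and Ptges had r = 0.75, while Ptgs1 and Ptgs2 had r = 0.18 and Ptgs2 and Ptger4 r = -0.19.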

How the data were processed

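The authors deposited raw counts of UMIs per gene and cell barcode, 1 matrix per library, not normalised or pooled; the submitters' processing notes name Cell Ranger 7.0.0, Seurat 5.0.1 and mm10. Handling of intronic reads was not given in the sources used here. The study's filter, which removes barcodes with under 500 genes or over 10% mitochondrial UMIs, left 5437 of 5812 (DMSO) and 5454 of 6047 (MVC). Counts were scaled to 10000 per cell, and 2000 variable genes, 30 principal components, 20 neighbours and the Leiden algorithm at resolution 1 (leidenalg 0.10.2) gave clusters, without integration, which differs from the study; a difference from it may come from rebuilt names. Doublets were scored against simulated doublets and kept, and free RNA was not corrected for. The ratio step was tested on simulated data. Gene positions came from GENCODE M21 by gene ID, with 32158 of 32285 IDs matched, and upstream sequences from RefSeq. Named genes were the 9 members, pathway genes past 1.5-fold or by leading class, and the 3 genes most like each member; examples of pathway genes that fell outside this were chosen after their values were seen. Clusters of the higher resolution were described after seeing the data. The members and lists were chosen with earlier results of these data known. Alternatives covered the cell filter, doublets, class naming, clustering, scaling, pseudocount and thinning.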

Additional observations from a re-analysis of the deposited data

Results flagged for a closer look

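Ratios of MVC over DMSO past 1.5-fold that ran opposite to those of other cell classes were picked out for Ptgs2 and Hpgd. For Ptgs2 the ratio was 28.9 in T/NK-like cells, 1.63 in perineurial-like cells and 1.52 in tenocyte-like cells, against 0.175 in SMC-like cells and 0.0741 in neutrophil-like cells. With 1 library per group these differences between classes were not tested. For Hpgd the ratio was 4.32 in macrophage-like cells and 0.651 in tenocyte-like cells, and this difference was not tested either. The values for T/NK-like, SMC-like and neutrophil-like cells rest on 4, 7 and 4 cells with a Ptgs2 UMI in the MVC library. In the T/NK-like cells called doublets held 103 of the 111 MVC UMIs.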

How the results depend on the processing

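No paired analysis was possible because each group held 1 library, and leaving out a replicate was not possible for the same reason. Of 401 values under alternatives, 363 stayed within their counting interval, 35 moved beyond it and 3 were counted as changing sign. A sign change within the interval was counted as staying. The log2 ratio of Ptger2 in macrophage-like cells kept its sign in 8 of 10 alternatives (-0.30 to 0.46, main value -0.098) and was counted so. In FAP-like cells the log2 ratio of Ptgs2 was -0.43, and -0.53 with each cell named by its own markers and -0.56 with scaling by the median ratio; with that scaling Ptges was 0.19 in place of 0.32. With a minimum of 20 UMIs, 15 of 95 pathway pairs were higher in MVC, in place of 6 of 69, since more sparse genes entered. The sign changed for Ptgs2 in perineurial-like cells named by own markers (-1.75 in place of 0.70), in contractile SMC-like cells under the stricter cell filter (4.06 in place of -3.93, with 0 UMIs left in DMSO, so the value depends on the pseudocount), and in Cxcl14 FAP-like cells at resolution 2 (0.27 in place of -0.79), where fewer cells carried that name. In venous EC-like cells it was -1.57 in place of -1.21 without the 3 highest cells. Depth limits statements on Ptgds, Ptger2 and the receptors of prostaglandin D2, and single libraries limit every comparison.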
